A study of Mus musculus with 16 samples.

Results

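The angiopoietin, Tie and apelin genes described here are Tek, Tie1, Angpt1, Angpt2, Ptprb, Apln and Aplnr, taken by gene symbol from a table of 15895 genes. All 7 were in the table, as protein-coding genes with the Ensembl identifiers ENSMUSG00000006386 (Tek), ENSMUSG00000033191 (Tie1), ENSMUSG00000020154 (Ptprb), ENSMUSG00000022309 (Angpt1), ENSMUSG00000031465 (Angpt2), ENSMUSG00000037010 (Apln) and ENSMUSG00000044338 (Aplnr). Gene coordinates below are those of the deposited table (GRCm38). They were measured by RNA sequencing of cardiac lymphatic endothelial cells that had been sorted as CD45-, CD31+ and podoplanin+. All mice were of the CD1 strain, with no genetic change named. Surgery at postnatal day 1 (P1) or 56 (P56) was either a myocardial infarction (MI) or the same procedure without infarction (sham), which gave 4 groups of 4 libraries, and every heart was taken 3 days after surgery. Neonatal ventricles of unstated sex were pooled, cut up and digested under agitation, while adult hearts were from males, had the left descending coronary artery permanently ligated for MI, and were digested by perfusion. Age can therefore not be told apart from sex, pooling and digestion. The labels do not state whether libraries of 1 group stem from separate animals or pools, and p-values measure only the spread between libraries. The comparisons below share groups, since each group enters more than 1 of them.

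Tek (also called Tie2) is the endothelial receptor tyrosine kinase of the angiopoietins. Angpt1 is its agonist, made largely by cells around vessels, and Angpt2 is made by endothelium and acts as an antagonist or a weak agonist depending on the setting. Tie1 is an orphan co-receptor that modulates Tek, and Ptprb (VE-PTP) is a phosphatase that removes phosphate from Tek in blood vessels, whereas lymphatic endothelium is known for a low level of it and a response to Angpt2 as an agonist. The Tie system is needed for lymphatic growth and remodelling. Apelin (Apln) is a secreted peptide of growing vessels, and Aplnr is its G protein-coupled receptor.

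Tek and Tie1 were both lower after adult MI, and the start sites of these genes are shown for that reason. With 13 of the 16 libraries both passed the test given below, and with all 16 neither did. Whether the motifs have a part in these values was not tested. They are 300 bases of RefSeq sequence (GRCm38.p6), from 250 bases before to 50 bases after the annotated start, each in the direction of its gene. Capitals mark the core GGAA of the ETS transcription factors, or TTCC where it lies on the other strand. Tek lies at chr4:94739039-94739338, plus strand, and Tie1 at chr4:118489800-118490099, minus strand.
Tek: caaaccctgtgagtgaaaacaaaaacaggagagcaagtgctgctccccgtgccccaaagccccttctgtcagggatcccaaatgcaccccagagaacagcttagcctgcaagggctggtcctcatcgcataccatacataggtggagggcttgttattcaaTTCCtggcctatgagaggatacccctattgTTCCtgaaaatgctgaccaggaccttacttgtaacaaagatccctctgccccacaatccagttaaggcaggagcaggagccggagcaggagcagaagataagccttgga
Tie1: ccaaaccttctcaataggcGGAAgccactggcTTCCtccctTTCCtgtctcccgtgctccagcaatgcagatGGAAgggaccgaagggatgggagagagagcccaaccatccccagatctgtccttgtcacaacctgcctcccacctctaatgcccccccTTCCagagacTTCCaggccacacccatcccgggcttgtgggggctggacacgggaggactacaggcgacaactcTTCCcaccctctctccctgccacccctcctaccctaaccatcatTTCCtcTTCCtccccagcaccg
The Tie1 window holds 9 matches to GGAA on either strand and the Tek window 2, and 96% of 32851 promoters in the same table hold at least 1. How many promoters hold as many as 9 or as few as 2 was not counted. The letters AGATAA, recognised by zinc-finger factors of the endothelium and blood, occur 1 time in the Tek window and not in that of Tie1, against 11.2% of all promoters, and this match overlaps no GGAA. The hypoxia core ACGTG (in 19.6% of promoters) and the FOX core TGTTTAC (in 3.65%) are in neither window, both strands searched. The RefSeq start of Tie1 lies 212 bases inside the 5′ end of the gene in the deposited table, and that of Tek coincides with it.

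Depth ran from 17103319 to 43837520 reads on the genes listed. In 3 libraries, sham P1 libraries 1 and 2 and MI P56 library 5, only 7746 to 9451 genes had a read, against 14121 to 15821 in the other 13. The members had 1 to 20 reads in MI P56 library 5, 0 to 42 in sham P1 library 2 and 0 to 2831 in sham P1 library 1, which was left out for its 9451 genes although it had 6376296 reads outside Uqcrc1 and mitochondrial rRNA. The fit used the other 13 libraries, of which 2 were sham and 4 MI at P1, and 4 were sham and 3 MI at P56, and values with all 16 are given beside each call of a member. Of the 13, sham P1 library 5 stands apart, with 47.3% of its reads on Uqcrc1 (at most 4.11% in the other 12) and 6709566 reads outside that gene and mitochondrial rRNA. In the 13, each member had between 20 and 19207 reads per library. Values are in the deposited unit, read counts per scaled library size (CPM), and 3 reads corresponded to 0.0489 to 0.109 in the 13 libraries. Of 7 lymphatic markers, 6 were in the table (Ccl21a is not analysed here). Their summed value was 979 to 3065 in every library of the 13, with none at 0. Differences are on the log2(value + 1) scale with their SE, from limma, and a gene was called at a Benjamini-Hochberg adjusted p under 0.05 over 13033 genes tested.

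Per kilobase of exon, Ptprb and Tek were the most abundant members. These are levels of the sorted samples, not of lymphatic cells alone. Blood endothelial markers were read in them too, with a mean sum of 104 in sham P1 and 504 in sham P56. Ptprb had a mean of 15.2 per kb (range 6.96 to 24.5 over 13 libraries) and Tek of 12.2 (7.69 to 18.1), with Ptprb above Tek in 12 of 13 libraries. The exception was sham P1 library 5, and the sham P1 means were 12.1 for Tek and 9.65 for Ptprb. Tie1 (5.61 per kb), Angpt2 (5.52) and Aplnr (3.77) followed. Their order differed by age. Tie1 exceeded Angpt2 in 7 of 7 libraries at P56 and in 1 of 6 at P1, and Angpt2 exceeded Aplnr in 3 of 7 at P56 and in 6 of 6 at P1. Apln (0.681) and Angpt1 (0.388) were lowest, and Apln was above Angpt1 in 7 of 13. Angpt2 was above Angpt1 per kb in 13 of 13.

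**Figure D1:**
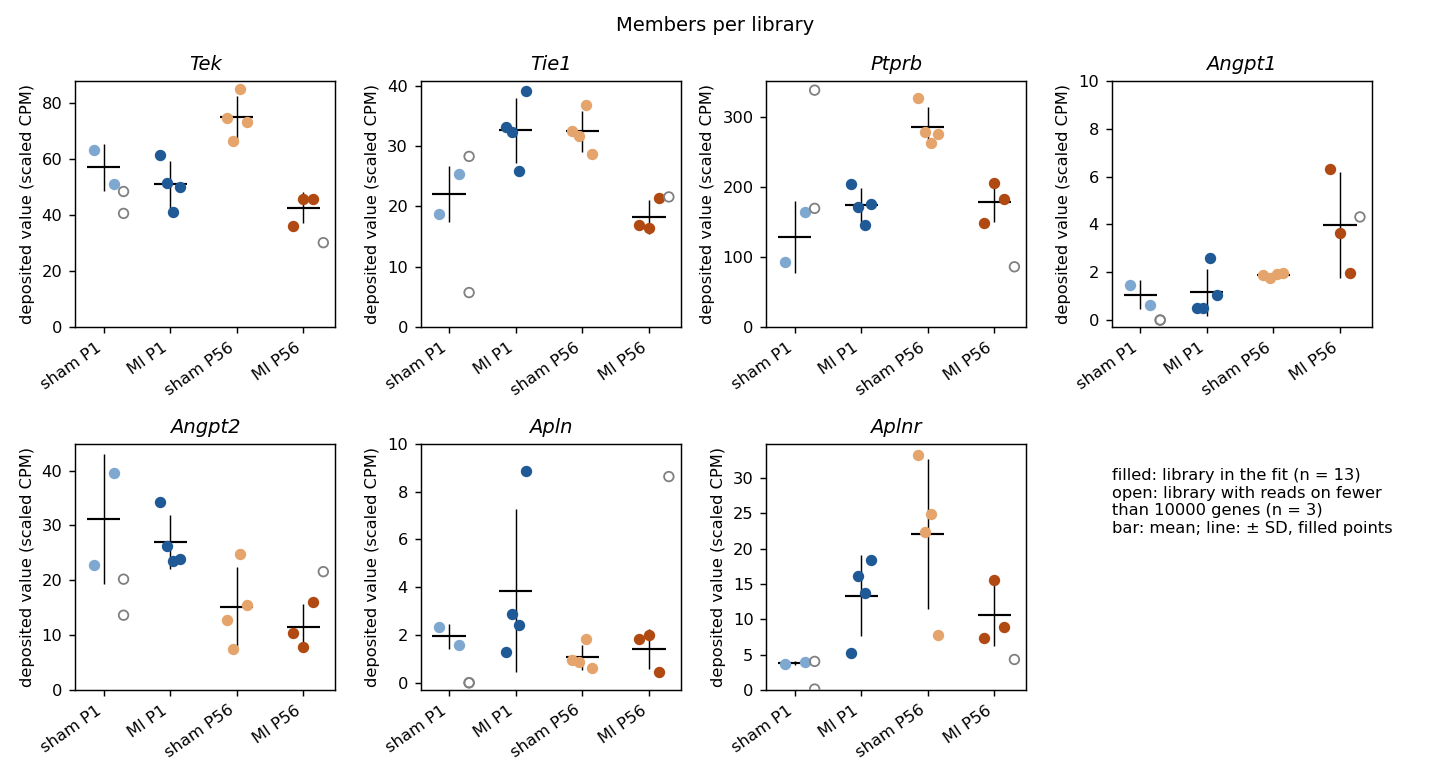
Deposited value (scaled CPM) of each member per library, by group. Filled points are the 13 libraries in the fit, with the mean as a bar and ± SD as a line, and open points are the 3 left out. Tek lies between 66.6 and 85.2 in sham P56 and between 36.3 and 45.9 in MI P56.

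How the members differ 3 days after infarction of the adult heart was read from MI and sham libraries of P56. Tek (chromosome 4, 94739289 to 94874976) was at 73.4, 85.2, 66.6 and 74.5 in the sham libraries and at 45.9, 45.8 and 36.3 in the MI libraries. Every MI library lay below every sham library. Tek fell by 0.80 ± 0.20 on the log2 scale (limma adjusted p = 0.0304), from 74.9 ± 7.67 (SD, n = 4) to 42.6 ± 5.53 (n = 3). Tie1 (chromosome 4, 118471191 to 118490061) was at 28.7, 36.8, 31.6 and 32.5 in sham and at 21.5, 16.4 and 16.9 in MI, again without overlap. It fell by 0.80 ± 0.22 (limma adjusted p = 0.0469). These 2 of 7 members were called lower and 0 higher, where 1.07% of all genes tested were called lower and 2.36% higher. In bulk samples, fewer cells of a type and less RNA per cell cannot be told apart. Both calls depended on single libraries. Tek lost it without MI P56 library 1 (adjusted p = 0.0531), 2 (0.0594) or 3 (0.178), or sham P56 library 1 (0.0516) or 5 (0.0611). Tie1 lost it without any 1 of 12 libraries (0.051 to 0.191) and kept it only without sham P56 library 2. With all 16 libraries the changes of Tek and Tie1 were -0.92 and -0.74 (limma adjusted p = 0.449 and 0.733), where 0.174% of all genes were called.

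Ptprb (chromosome 10, 116275523 to 116389535), the phosphatase acting on Tek, was at 276, 263, 278 and 327 in sham P56 and at 183, 205 and 149 after MI. The groups did not overlap, but the difference of -0.68 ± 0.22 did not pass the test (limma adjusted p = 0.0903). DESeq2 on whole reads placed Ptprb just inside the threshold (-0.69, adjusted p = 0.0496), with 2.56% of all genes called lower. Groups without overlap and lower after MI were seen in 5.79% of all genes tested at P56, and in Tek, Tie1 and Ptprb among the members. Relative to Tek the other two did not separate the groups. Tie1 was 0.390 to 0.475 of Tek in sham P56 and 0.358 to 0.468 after MI, and Ptprb was 3.09 to 4.38 times Tek in sham P56 and 3.99 to 4.49 times after MI, with overlap in both ratios.

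Aplnr (chromosome 2, 85136225 to 85139923) was at 7.75, 24.9, 22.4 and 33.2 in sham P56 and at 8.93, 15.6 and 7.31 after MI. Sham P56 library 1 was as low as the MI libraries, and the difference of -0.89 ± 0.43 was not called (limma adjusted p = 0.294, 95% interval -1.79 to 0.0035). Its ligand Apln (chromosome X, 48025146 to 48034853) was at 0.605, 1.81, 0.886 and 0.970 in sham and at 0.470, 1.98 and 1.84 after MI, with overlapping groups (0.20 ± 0.43, adjusted p = 0.862). The endothelial ligand Angpt2 (chromosome 8, 18690263 to 18741562) also overlapped, at 15.4, 24.8, 7.38 and 12.7 in sham against 16.05, 7.78 and 10.4 in MI (-0.32 ± 0.33, adjusted p = 0.681). Angpt1 (chromosome 15, 42424727 to 42676977) was nearly constant in sham, at 1.95, 1.94, 1.77 and 1.91, and spread in MI, at 1.96, 3.62 and 6.33. Each MI library was above each sham library, as in 8.00% of all genes, with the nearest pair at 1.96 and 1.95, and the difference was not called (0.68 ± 0.38, limma adjusted p = 0.373). Angpt1 rested on 75 to 112 reads in sham and 100 to 389 in MI.

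Markers of other cells moved with this comparison. The summed value of 8 blood endothelial markers, all in the table and none at 0 throughout a group, was 385 to 667 in sham P56 and 158 to 285 in MI P56. For pericytes and smooth muscle (7 of 8 in the table) the sums were 449 to 1152 and 208 to 335. They came mostly from Rgs5 (638 and 207 on average), whereas Acta2 was higher after MI (12.3 to 47.7 against 1.97 to 3.98). Pdgfrb (17.8 in sham and 27.9 after MI on average) and Cspg4 (1.61 and 1.96) also had higher means after MI, with overlapping groups. For cardiomyocytes (6 of 6) the sums were 1242 to 2273 and 313 to 557. Fibroblast sums (6 of 6) overlapped, at 437 to 2121 and 1444 to 3113, but within them Col1a1 did not (58.0 to 270 and 767 to 2049), while Dcn did (277 to 1330 and 417 to 812). Lymphatic sums overlapped, at 1735 to 3065 and 979 to 2344, with a lower mean after MI (1618 against 2349). Each lymphatic marker in the table had a lower mean after MI, from Reln (196 against 396) to Lyve1 (423 against 460). Leukocyte sums (5 of 5) were 5.26 to 8.81 in sham and 13.9 to 82.2 after MI. Endocardial sums (2 of 2) were 10.6 to 33.2 and 6.86 to 9.45, platelet sums (2 of 3) 0 to 0.868 and 0.928 to 2.72, and mesothelial sums (4 of 4) overlapped, at 7.92 to 58.9 and 7.02 to 17.6. The part of these in the lower Tek, Tie1 and Ptprb was not tested.

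**Figure D2:**
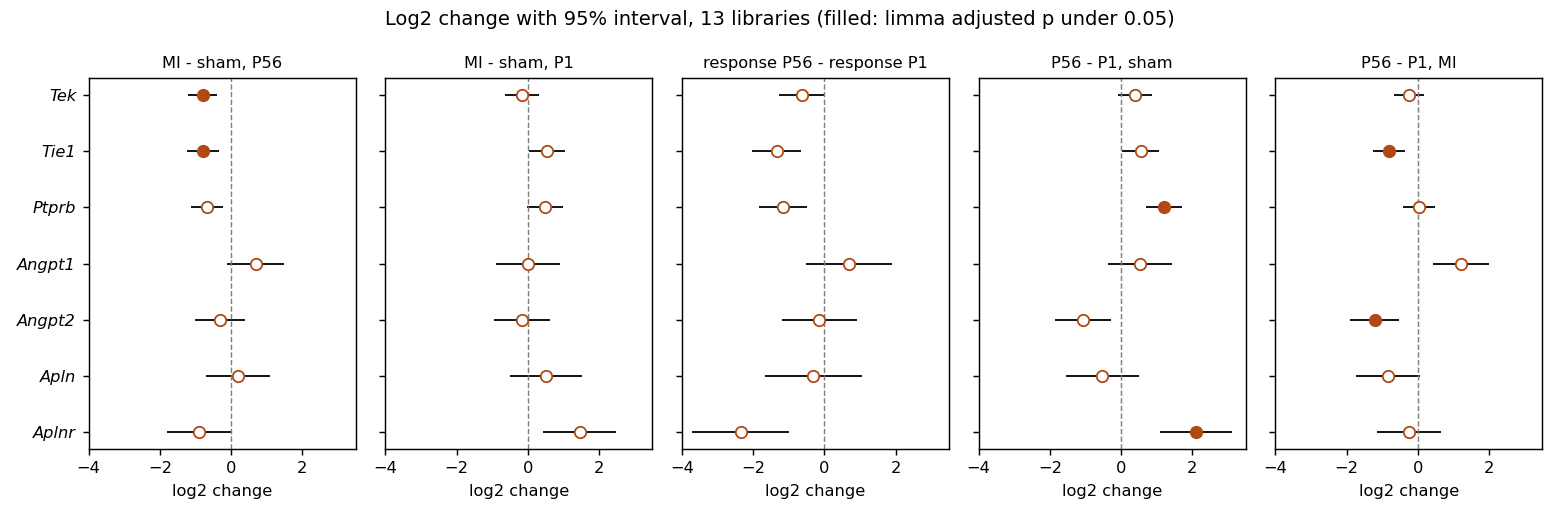
Log2 change of each member with its 95% interval in the 5 comparisons, from limma with 13 libraries; filled points passed an adjusted p of 0.05. Tek and Tie1 lie below 0 for MI at P56, and Aplnr and Ptprb above 0 for age in sham.

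At P1, an age at which the mouse heart is known to regenerate, no member was called for MI against sham by limma, edgeR or DESeq2. By limma 0% of all genes tested were called, and 2 of the 7 members had an unadjusted p under 0.05, against 3.72% of all genes. These were Aplnr and Tie1. Aplnr was at 3.97 and 3.66 in the sham libraries (3 and 5) and at 18.4, 13.7, 16.2 and 5.18 after MI. Each MI library was above both sham libraries, and the difference was 1.46 ± 0.49 (limma unadjusted p = 0.00746, adjusted p = 1.00). Tie1 was at 25.4 and 18.7 in sham and at 39.1, 25.8, 32.3 and 33.2 in MI, a difference of 0.54 ± 0.24 (unadjusted p = 0.0387, limma adjusted p = 1.00). Of all genes tested, 8.89% lay higher after MI without overlap of these 2 and 4 libraries. Relative to Tek, Tie1 was 0.297 and 0.495 in sham P1 and 0.538 to 0.779 in MI P1. Ptprb was 1.47 and 3.22 times Tek in sham P1 and 3.31 to 3.55 times in MI P1. Neither ratio overlapped, and no share over all genes was computed for such ratios.

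The other members overlapped between the groups at P1. For Tek, the sham values of 51.2 and 63.1 overlapped the MI values of 50.1, 41.2, 51.5 and 61.7, with a difference of -0.16 ± 0.23 (95% interval -0.64 to 0.31). Ptprb was at 165 and 92.7 in sham and at 176, 146, 172 and 204 in MI (0.48 ± 0.25, limma adjusted p = 1.00). Angpt2 was at 39.6 and 22.8 against 23.9, 23.6, 26.2 and 34.2 (-0.17 ± 0.38). Angpt1 was at 0.633 and 1.49 against 1.05, 2.59, 0.499 and 0.491, with a log2 difference of 0.0003 (95% interval -0.90 to 0.90). Apln reached 8.85 in MI P1 library 1, and the other MI libraries were at 2.44, 2.87 and 1.27 against 1.56 and 2.32 in sham (0.51 ± 0.49). The 95% interval for Apln ran from -0.51 to 1.53. Blood endothelial sums moved with Aplnr here too, at 95.8 and 111 in sham P1 and 126 to 200 in MI P1. So did mesothelial sums (13.6 and 25.1 against 30.2 to 57.6) and endocardial sums (5.04 and 6.79 against 7.98 to 15.4). The part of these 3 lists was not tested.

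The difference between the responses at the 2 ages was tested as an interaction. No member was called, as 0.483% of all genes were, and 4 of the 7 had an unadjusted p under 0.05, against 10.9% of all genes. The smallest was that of Tie1, whose response at P56 minus that at P1 was -1.34 ± 0.33 on the log2 scale (limma adjusted p = 0.0748). Aplnr followed at -2.35 ± 0.65 (adjusted p = 0.126), Ptprb at -1.16 ± 0.33 (0.131) and Tek at -0.64 ± 0.30 (0.451). DESeq2 on whole reads called Tie1 (-1.38, adjusted p = 0.00935) and Aplnr (-2.84, adjusted p = 0.00536), and 1.07% of all genes as lower. By edgeR 0 members were called. In limma Tie1 was called without sham P56 library 2 (adjusted p = 0.0373) and Aplnr without sham P56 library 1 (adjusted p = 0.0284), while other libraries left out took the adjusted p up to 0.528 and 0.526. Sham P1 enters with 2 libraries, which limits this comparison. Blood endothelial sums were lower after MI at P56 (158 to 285 against 385 to 667) and higher at P1 (126 to 200 against 95.8 and 111). Endocardial sums were also lower at P56 (6.86 to 9.45 against 10.6 to 33.2) and higher at P1 (7.98 to 15.4 against 5.04 and 6.79). No other marker list separated in opposite directions at the 2 ages. The part of these 2 lists was not tested.

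Between the sham groups, 2 members differed with age. Ptprb was higher at P56, at 286 ± 27.9 (n = 4) against 129 ± 50.9 (n = 2), a log2 change of 1.20 ± 0.25 (limma adjusted p = 0.00246). Aplnr was higher too, at 22.1 ± 10.6 against 3.81 ± 0.217 (2.10 ± 0.49, limma adjusted p = 0.00645). These 2 of 7 members were called higher and 0 lower, against 5.89% and 7.28% of all genes. Ptprb rested on sham P1 library 5, in which it was at 92.7 against 165 in library 3, and which had 47.3% of its reads on Uqcrc1. Without library 5 Ptprb was at 0.79 (limma adjusted p = 0.143), and without library 3 it kept its call, at 1.61. Aplnr lost its call without either, at 2.06 (0.0782) and 2.15 (0.0566). With all 16 libraries Ptprb was at 0.72 (limma adjusted p = 0.257), while Aplnr was at 2.61 (0.0151), with 2.52% of all genes called higher. In sham P1 library 1, left out, Ptprb was at 338 on 2831 reads, above every sham P56 library (263 to 327). In library 2, also left out, it was at 170 on 42 reads. Ptprb was 1.47 and 3.22 times Tek in the 2 sham P1 libraries and 3.09 to 4.38 times in sham P56, so these ranges overlapped.

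Tek, Tie1 and Angpt1 also had every sham P56 library above both sham P1 libraries, as did 16.3% of all genes, and none of the 3 was called. Their differences were 0.39 ± 0.23, 0.55 ± 0.24 and 0.52 ± 0.43 (limma adjusted p = 0.290, 0.158 and 0.475). Angpt2 went the other way, with 39.6 and 22.8 in sham P1 and 7.38 to 24.8 in sham P56 (-1.06 ± 0.38, limma adjusted p = 0.0692). Without sham P56 library 2, the highest adult one, Angpt2 was at -1.33 (limma adjusted p = 0.00819), and with another library left out it was as near 0 as -0.68 (adjusted p up to 0.485). Apln did not separate (-0.53 ± 0.49). Blood endothelial sums were 385 to 667 in sham P56 against 95.8 and 111 in sham P1, those of pericytes and smooth muscle 449 to 1152 against 103 and 212, and those of cardiomyocytes 1242 to 2273 against 144 and 215. In the pericyte list Acta2 (2.97 on average against 9.86) and Cspg4 (1.61 against 4.42) went the other way. Endocardial sums were 10.6 to 33.2 against 5.04 and 6.79, and leukocyte sums were lower, at 5.26 to 8.81 against 16.3 and 17.0. Their part in the higher Ptprb and Aplnr was not tested.

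After MI, Angpt2 was lower at P56 than at P1, at 11.4 ± 4.23 (n = 3) against 27.0 ± 4.98 (n = 4). Its log2 change was -1.21 ± 0.33 (limma adjusted p = 0.0362), and all 3 adult libraries were below all 4 neonatal ones. Tie1 was lower as well, at 18.3 ± 2.79 against 32.6 ± 5.43 (-0.80 ± 0.22, limma adjusted p = 0.0345). These 2 of 7 compare with 3.26% of all genes called lower and 2.09% higher, and 11.2% of all genes were lower at P56 without overlap. Angpt2 lost its call without MI P56 library 2 (adjusted p = 0.202) or 3 (0.102) or any MI P1 library (0.0632 to 0.109). Tie1 lost it without MI P56 library 2 (0.158) or 3 (0.108) or MI P1 library 1 (0.115), 3 (0.0733) or 5 (0.0747). With all 16 libraries Angpt2 was at -0.98 and Tie1 at -0.74 (limma adjusted p = 0.734 and 0.902), where 0.106% of all genes were called. Angpt1 was at 3.97 ± 2.21 against 1.16 ± 0.991 (1.21 ± 0.38, limma adjusted p = 0.0724). It was called without MI P56 library 1 (0.0449), MI P1 library 2 (0.0335) or sham P56 library 2 (0.0378), and with another library left out was as low as 0.88 (adjusted p up to 0.284). Tek, Angpt1, Ptprb, Apln and Aplnr overlapped between the ages after MI. Mesothelial sums moved with this comparison, at 7.02 to 17.6 in MI P56 and 30.2 to 57.6 in MI P1, while blood endothelial (158 to 285 and 126 to 200) and lymphatic sums (979 to 2344 and 1563 to 2554) overlapped. The part of the mesothelial genes was not tested. Relative to Tek, Tie1 was 0.538 to 0.779 in MI P1 and 0.358 to 0.468 in MI P56, without overlap. Ptprb was 3.31 to 3.55 times Tek in MI P1 and 3.99 to 4.49 times in MI P56, also without overlap. In MI P56 library 5, left out with 5 to 20 reads on these genes, Tie1 was 0.714 of Tek and Ptprb 2.86 times Tek. With all 16 libraries both ratios therefore overlapped. The share of all genes whose ratio to Tek separates the 2 MI groups was not computed.

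The balance of the 2 ligands was followed as the ratio of Angpt2 to Angpt1 within each library, on the log2 scale after adding 1 to each value. At P56 it was 1.36 ± 1.02 (SD, n = 3) after MI and 2.36 ± 0.64 (n = 4) after sham surgery. At P1 it was 3.78 ± 0.78 (n = 4) and 3.95 ± 0.97 (n = 2). As plain ratios of the values, Angpt2 was 9.10 to 69.7 times Angpt1 in MI P1 and 1.64 to 8.19 times in MI P56. The difference by age after MI was -2.42, with no overlap (two-sided exact permutation p = 0.0286, the smallest these 7 libraries can give, adjusted p = 0.114 over 4 comparisons). In sham it was -1.59 (exact p = 0.0667, also the smallest possible, adjusted p = 0.133). For MI against sham it was -1.001 at P56 (exact p = 0.20, adjusted p = 0.267) and -0.17 at P1 (exact p = 0.867, adjusted p = 0.867). With these group sizes no adjusted p could fall below 0.0571, so no ratio could pass the threshold.

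**Figure D3:**
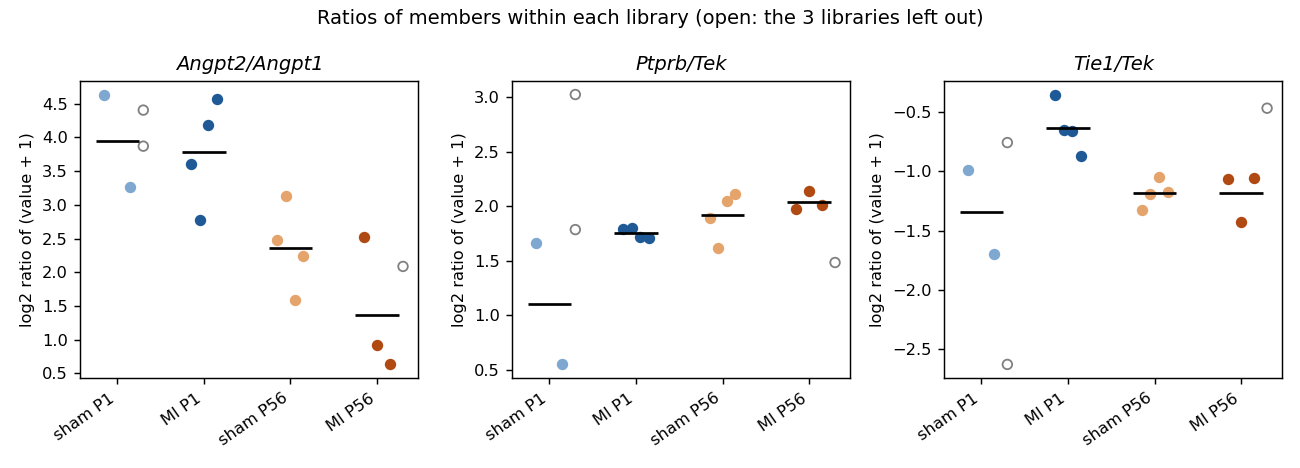
Log2 ratio of 2 members within each library, by group, with the group mean of the filled points as a bar; open points are the 3 libraries left out. Angpt2 over Angpt1 lies between 2.77 and 4.56 in MI P1 and between 0.63 and 2.53 in MI P56.

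Other genes of these pathways were read from a list of 37 genes, of which 33 were tested. After MI at P56, 2 were higher, 1 lower and 30 not called, where 2.36% of all genes were called higher and 1.07% lower. By list, 1 rose and 1 fell of 6 Tie ligands, partners and sheddases tested, 1 rose of 16 genes downstream of Tek, and 0 changed of 11 in apelin processing and receptor coupling. Pak1, a kinase that acts on the cytoskeleton downstream of Tek through the adaptor Dok2, rose from 1.39 ± 0.866 to 8.69 ± 0.734 (2.10 ± 0.37, limma adjusted p = 0.00278). Itga5, an integrin subunit that binds fibronectin and angiopoietins, rose from 24.7 ± 4.05 to 67.1 ± 8.81 (1.41 ± 0.26, limma adjusted p = 0.00372). Both kept their call without any 1 of the 13 libraries, but not with all 16 (adjusted p = 0.730 and 0.728). The fibroblast gene Col1a1 (58.0 to 270 in sham P56, 767 to 2049 in MI P56) and leukocyte sums (5.26 to 8.81 and 13.9 to 82.2) were higher too. The part of other cells in the higher Pak1 and Itga5 was not tested. Cdh5, the VE-cadherin of endothelial junctions and a partner of Ptprb, fell from 161 ± 16.5 to 97.3 ± 14.6 (-0.73 ± 0.20, limma adjusted p = 0.0447), and lost its call without any 1 of 10 libraries (0.0507 to 0.222). Foxo1, the transcription factor that Tek signalling restrains, was at 69.7 ± 6.58 and 57.2 ± 10.1 and was not called. The median change of the 33 was 0.0068, against 0.0078 for all genes and -0.68 for the 7 members.

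At P1 and for the interaction 0 of the 33 were called. The smallest p at P1 was that of Hdac5, a histone deacetylase exported from the nucleus by apelin signalling, at 1.497 ± 0.478 in sham and 7.05 ± 3.86 in MI (1.57 ± 0.43, limma adjusted p = 0.875), and 2 of 33 had an unadjusted p under 0.05 (3.72% of all genes). For the interaction it was Pak1 (2.47 ± 0.55, limma adjusted p = 0.0516), with 8 of 33 at an unadjusted p under 0.05 (10.9% of all genes). For age in sham 1 of 33 was higher and 3 were lower, against 5.89% and 7.28% of all genes, so these counts lie near the background. Arrb1, the arrestin that binds Aplnr among other receptors, rose with age (0.86 ± 0.27, limma adjusted p = 0.0391). Gnai1, an inhibitory G protein subunit (-1.53 ± 0.47, 0.0372), Pak1 (-1.27 ± 0.42, 0.0493) and Itga5 (-0.97 ± 0.29, 0.0346) fell. Each of these 4 lost its call without either 1 of the 2 sham P1 libraries, with adjusted p of 0.0799 to 0.373 for Arrb1, 0.103 to 0.294 for Gnai1, 0.102 to 0.40 for Pak1 and 0.0639 to 0.374 for Itga5. Counting every library, Pak1 lost its call without any 1 of 11 of the 13, Arrb1 of 7, Gnai1 of 4 and Itga5 of 2. With all 16 libraries none of the 4 was called (limma adjusted p from 0.0691, for Arrb1, upwards). The fibroblast gene Col1a1 was lower with age in sham too, at 630 and 1492 in sham P1 and 58.0 to 270 in sham P56. Fibroblast sums overlapped there, at 1249 and 2959 against 437 to 2121. The part of other cells in Arrb1, Gnai1, Pak1 and Itga5 was not tested. Age after MI gave 1 of 33 higher, the adaptor Grb14 that binds phosphorylated Tek (1.48 ± 0.36, limma adjusted p = 0.0185), and 1 lower, Cdh5 (-0.90 ± 0.20, 0.00948), against 2.09% and 3.26% of all genes. Grb14 lost its call without MI P56 library 2 (0.119) or MI P1 library 3 (0.0562) or 5 (0.0691), whereas Cdh5 kept its call without any 1 library (up to 0.0496). With all 16 libraries neither was called (0.949 and 0.978).

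**Figure D4:**
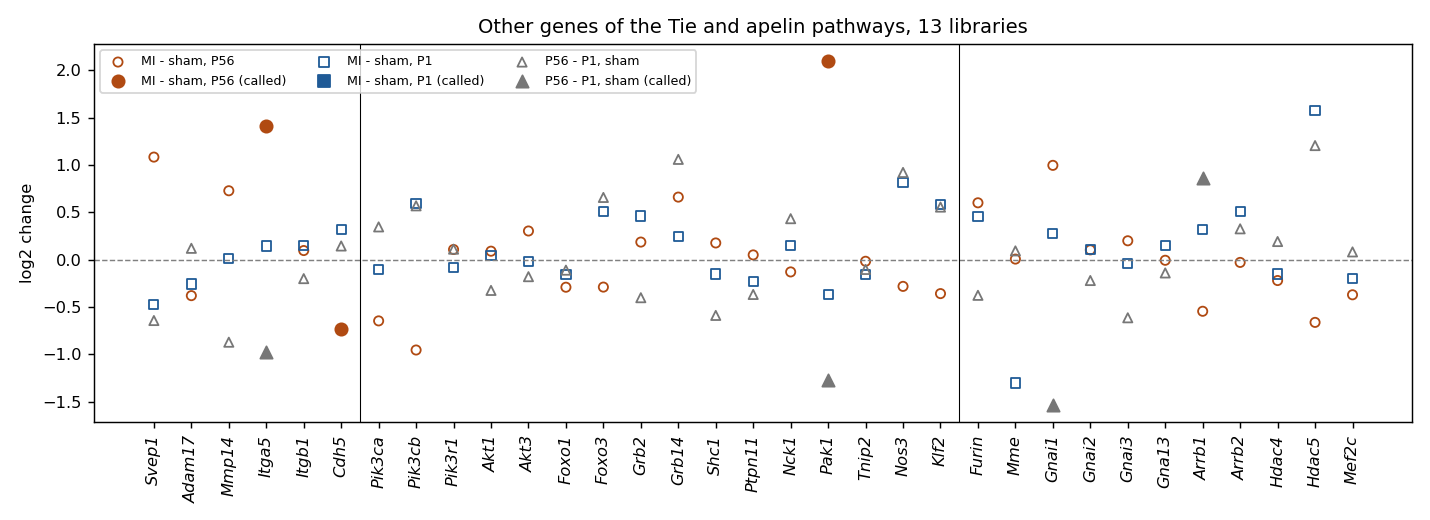
Log2 change (limma, 13 libraries) of the 33 other pathway genes tested, for MI at each age and for age in sham; filled symbols were called. Vertical lines separate Tie ligands and partners, genes downstream of Tek, and apelin pathway genes; Pak1 and Itga5 are the 2 highest filled points.

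Apela, the second peptide ligand of Aplnr, is named after its values were seen. It reached a value of 1 in 3 of 13 libraries and so was not tested. It had reads in 6 of 6 neonatal libraries, at 0.844 and 1.01 in sham P1 and 0.473 to 1.53 in MI P1. In adult libraries it had reads in 2 of 7, with 11 reads (0.187) in sham P56 library 5 and 5 reads (0.108) in MI P56 library 2. Angpt4 and Dok2 are not analysed here.

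Genes whose values followed a member most closely over the 13 libraries were taken from 6099 genes with a mean of at least 5, by Pearson's r of log2(value + 1), as a description. All 13 points share the groups and the scaling. For Tek these were Limch1 (r = 0.92), Sdpr (0.92), a caveolar protein, and Msantd2 (0.90), and for Tie1 Hsd17b4 (0.87), Itga6 (0.85), a laminin receptor subunit, and Sft2d2 (0.85). For Ptprb they were Tdrd7 (0.96), Btnl9 (0.93) and Kank3 (0.92). The group means of Kank3 were 33.1 and 11.2 at P56 (sham, then MI), and 8.06 and 9.31 at P1. For Aplnr they were Kitl (0.89), the ligand of the Kit receptor, Pcdh1 (0.88) and Ablim1 (0.87). Angpt2 followed another order, with Met (0.96), the receptor of hepatocyte growth factor, Lrch2 (0.95) and the sodium channel gene Scn3a (0.94). The group means of Met were 6.96 and 5.61 at P56 and 21.1 and 26.03 at P1, lower at P56 after either surgery, as were those of Angpt2.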

How the data were processed

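RNA was sequenced from 16 libraries of sorted cells. The authors deposited 1 signal per gene and library, named CPM by them. The submitters' processing notes list Trimmomatic, STAR, HTSeq and edgeR and the mm10 build, and their versions are not given in the sources used here. The columns are not plain CPM, which the design had assumed: they fit reads per TMM-scaled library size, and 99.9996% of values were whole reads within 0.01 read. Per the labels replicates run from 1 to 4, but columns from 1 to 3 and 5, so columns numbered 5 were placed by group name only.

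Libraries with reads on at least 10000 genes (13 of 16) and genes at 1 or more in at least 4 of them were fitted in 4 groups with limma 3.58.1 (trend, R 4.3.3) on log2(value + 1), a scale that understates changes of low genes. The 5 contrasts were each adjusted over all genes tested. Alternatives were all 16 libraries, other filters, pseudocounts and scalings, only the groups compared, edgeR 4.0.16 and DESeq2 1.42.0 on whole reads, a replicate block, and leaving out single libraries; edgeR with all 16 libraries was added after seeing the data. The fit was also run on simulated reads, drawn with the spread of the same 13 libraries. That run cannot bear on which libraries were kept or on sham P1 library 5. Exon lengths are from GENCODE M21, whose coordinates equal those in the table for 6 of 7 members (not Angpt1). Every member was named, up to 4 called genes of the other pathway genes per comparison or else the 1 with the smallest p, and for each member with a mean of at least 5 the 3 genes most like it. Foxo1 was named as a known target. The members, the lists and the 13 libraries were chosen with earlier results of these data known.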

Additional observations from a re-analysis of the deposited data

How the results depend on the processing

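The direction of every called member held under all alternatives run, but not its call. Members called lower after MI at P56 numbered 2, 3 by DESeq2, 1 with no filter, edgeR or quantile normalization, 0 with all 16 libraries (limma or edgeR), only the groups compared or the replicate block, and 0 to 2 with 1 library left out. Other pathway genes called there numbered 2 higher, 0 with all 16 libraries (limma or edgeR), and 1 lower, 0 under those 7 settings and 0 to 3 with 1 library left out. For the difference between ages, members called lower numbered 0, 1 with a value of at least 5 and 2 by DESeq2 (0 to 1 with 1 library left out). Other pathway genes there were 0 higher, 1 with a value of at least 5, DESeq2, median-of-ratios or quantile scaling (0 to 1 with 1 left out), and 0 lower, 2 by DESeq2. For age in sham, members higher numbered 2, 1 with all 16 libraries by limma or edgeR (0 to 2 with 1 left out), and lower 0, 1 after quantile normalization, which added Angpt2 (0 to 1). Other genes higher numbered 1, 3 by DESeq2, 0 with all 16 libraries, edgeR, quantile, only the groups compared or the replicate block (0 to 2). Those lower numbered 3, 1 with pseudocount 0.25 or edgeR (13 or 16 libraries), 0 with all 16 libraries in limma, only the groups compared or the replicate block (0 to 4). For age after MI, members lower numbered 2, 1 by edgeR, 0 with all 16 libraries (limma or edgeR) or the replicate block (0 to 2), and higher 0 (0 to 1). Other genes higher numbered 1, 2 with pseudocount 4 or DESeq2, 3 with only the groups compared, 0 with all 16 libraries, edgeR or a value of at least 5 (0 to 3). Those lower numbered 1, 2 with no filter, 3 by DESeq2 or with only the groups compared, 0 with all 16 libraries (1 to 3). Small uncalled differences changed sign. For MI at P1 Tek was at 0.0104 and Angpt2 at 0.24 with all 16 libraries, Angpt2 at 0.13 and Ptprb at -0.15 in edgeR with all 16, and Angpt1 at -0.0479 (pseudocount 0.25), -0.0157 (median-of-ratios), -0.0338 (quantile) and -0.0488 (replicate block). For age in sham Apln was at 0.245 with all 16 libraries, and after MI Ptprb at -0.22 (limma) and -0.14 (edgeR) with all 16. Leaving out 1 library, MI at P1 ran from -0.55 to 0.22 for Angpt2, -0.30 to 0.30 for Angpt1 and -0.86 to 0.52 for the ratio of Angpt2 to Angpt1. The difference between ages ran from -0.53 to 0.24 for Angpt2 and -0.60 to 0.10 for Apln, and age after MI from -0.0685 to 0.16 for Ptprb. The causes of these changes were not tested. No pairing by replicate number was seen: over 15 pairs with the same number the correlation of deviations was -0.32 to 0.14, and 1 was over 0.1. This check could not decide on pairing. The deviations of the 2 sham P1 libraries mirror each other by construction, and columns numbered 5 match no label. With the replicate block, adjusted p for MI at P56 was 0.0853 for Tek and 0.0909 for Tie1. Over all genes, calls numbered 446 for MI at P56 (23 to 866 over the alternatives), 0 at P1 (0 to 8), 63 for the difference between ages (1 to 324), 1716 for age in sham (518 to 2270) and 697 after MI (14 to 1344). Depth limits Angpt1 and Apln most, with as few as 20 and 24 reads.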
